A study of Dunaliella salina with 6 samples.

Results

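Head-to-head gene pairs are neighbours on opposite strands whose 5′ ends face each other across a gap, so that transcription runs away from the gap on both sides. In the deposited annotation of Dunaliella salina Bardawil, 2163 such pairs had a gap of 0 to 500 nt and 2 expressed genes, out of 24837 neighbouring pairs of gene models on nuclear sequences in all. A pair was counted when the left gene lay on the minus strand, the right gene on the plus strand, no other model overlapped the gap, and each gene had a mean of at least 1 FPKM (fragments scaled to transcript length and to the number of mapped reads) over the 6 libraries. No measured change in expression entered this rule, but the mean spans both groups, so a gene could pass through its level in 1 group alone. CREG1A, SUTP1, TFN3 and DsB_g02807, described below, had means under 1 FPKM with added iron and passed in that way. The members were also chosen with earlier results of these data known. The comparison set was tail-to-tail pairs, whose 3′ ends face each other, with the same gap and the same minimum FPKM, and only 18 of these were found.

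Dunaliella salina is a unicellular green alga of salty waters whose cells lack a rigid wall, and Bardawil is known as a strain that stores carotenes. The libraries came from wild-type vegetative cells of strain UTEX LB 2538 in liquid culture, all in medium with 1 M NaCl, kept at 24 °C under constant light with shaking. One group of 3 flasks received no added iron (0 µM) and the other group of 3 flasks received 1.5 µM added iron, and RNA was taken after 3 days. Poly(A) RNA was sequenced in single-end reads of 50 nt, and iron carried over from the precultures or present in the other ingredients of the medium was not analysed here.

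In a head-to-head pair the space between the genes holds the start regions of both, so regulatory sequence there can in principle act on either gene. Such divergent arrangements are common in compact genomes, and textbook cases are the paired histone genes of animals and algae and the nitrate assimilation genes of green algae. Neighbours that face each other with their 3′ ends lie side by side as well, but their promoters are at the far ends. A green alga short of iron induces uptake proteins such as ferroxidases and ferric reductases and lowers several proteins that carry iron.

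The annotation placed 5998 neighbouring pairs head to head, and 2590 of them (43.2%) had a gap of 0 to 500 nt without another model inside. In 201 of these 1 gene fell under the FPKM minimum, in 226 both genes did, and the remaining 2163 (83.5%) were kept. Tail-to-tail neighbours were about as many, 6001, but only 318 (5.30%) had such a gap, and only 18 of those 318 (5.66%) had 2 expressed genes. Gaps of the head-to-head pairs had a median of 172 nt, with quartiles of 127 and 224.5 nt and a range of 3 to 500 nt. Among expressed neighbours of any gap, the median gap was 216 nt in 3195 head-to-head pairs, 3395 nt in 4273 same-strand pairs and 8183 nt in 1993 tail-to-tail pairs. The head-to-head pairs were thus short and numerous, and a large class of tail-to-tail pairs with the same gap did not exist in this annotation.

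**Figure D1:**
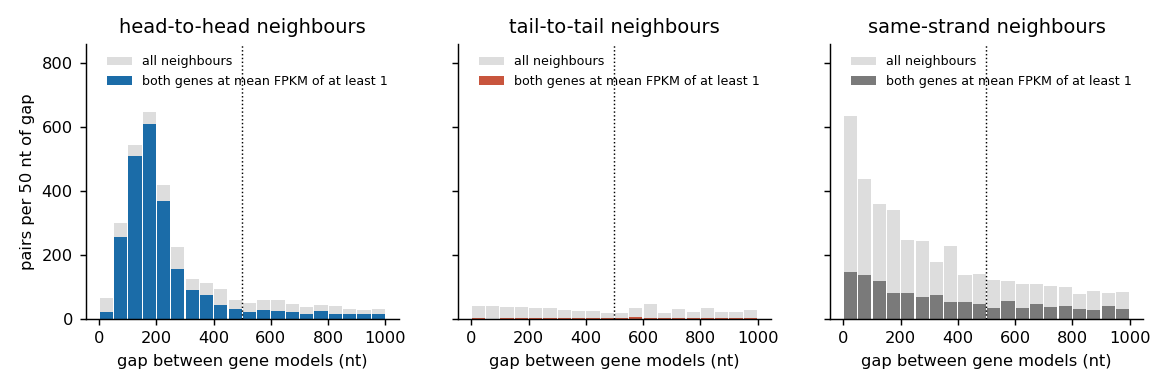
Number of neighbouring gene pairs per 50 nt of gap, for gaps under 1000 nt, in each of 3 orientations; pale bars count all neighbours, dark bars those whose 2 genes both had a mean FPKM of at least 1, and the dotted line marks 500 nt. Expressed head-to-head pairs peak between 150 and 199 nt with 611 pairs, while the tail-to-tail panel stays low throughout.

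The pairs contained 4326 genes, 31.1% of the 13909 genes of the whole table that passed the FPKM minimum, and they supplied between 29.5% and 31.0% of the summed FPKM of each library. Their levels were above those of the other 9504 tested nuclear genes, with a median of 13.4 FPKM (quartiles 7.37 and 26.8) against 8.16 FPKM (quartiles 3.94 and 18.7). Member genes were also longer in the annotation, with a median span of 13146 nt against 7904 nt and a median of 10 exons against 7. Models with a single exon made up 0.925% of the members and 16.5% of the other genes. A gene symbol was present for 36.2% of the members against 20.4%, and a Pfam domain for 66.5% against 41.4%. The gap is measured between annotated gene ends, and 68.1% of the members had an annotated 5′ UTR. In the 1004 pairs in which both genes had one, the median gap was 164.5 nt, and in the other 1159 pairs it was 178 nt.

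Genes were compared between cultures without and with added iron on log2(FPKM + 1) values with limma and Benjamini-Hochberg adjustment over all 13909 genes, at an adjusted p of 0.05. All fold changes below are log2 differences, no added iron minus added iron, on that scale. For genes near or under 1 FPKM in a group, the added 1 makes the change smaller than the ratio of the FPKM. Of the 4326 members, 135 (3.12%) were higher without added iron and 238 (5.50%) were lower, where 4.19% of all tested genes were higher and 5.2% were lower. In either direction 373 members (8.62%) were called against 9.39% of all tested genes. The groups of 3 libraries did not overlap for 1286 members (29.7%), and this was so for 30.2% of all tested genes. As a class, head-to-head genes were therefore called about as often as genes in general. Most called changes were small: 37 members rose and 35 fell by at least 2-fold, and 15 rose and 5 fell by at least 4-fold.

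The balance of directions rested on the scale of the deposited values. Summed FPKM ran from 472982 to 537245 in the libraries without added iron and from 538457 to 610113 with it. Rescaling every library to the same sum moved the median change of all tested genes from 2.79e-04 to 0.16, and then 1129 members were higher and 193 lower. With median-of-ratios factors 229 members were higher and 366 lower, and after quantile normalization 317 and 401. FPKM are shares of a library, so fewer transcripts of a gene per cell and more of other transcripts cannot be told apart. Replicate 3 without added iron also stood apart: it was the lowest of its group for 36 of the 37 members that rose at least 2-fold and the highest for 25 of the 35 that fell at least 2-fold. Without that library 243 members were higher and 257 lower. Leaving out any other library lowered the calls, to between 62 and 90 higher and between 96 and 151 lower.

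The 2 genes of a pair seldom changed together. In 343 of the 2163 pairs at least 1 gene was called, and in 313 of these the partner was not called. Both genes were called in 30 pairs: 5 pairs rose together, 24 fell together, and in 1 pair the genes went in opposite directions. Of the 373 called genes, 60 (16.1%) thus had a called partner, where 8.62% of all members were called. The 2 shares were 20.5% and 13.8% after median-of-ratios factors, 20.6% and 16.6% after quantile normalization, and 31.9% and 30.6% after rescaling to equal sums. In the 313 pairs with 1 called gene, the partner moved to the same side in 62.6%, but the median shift of the partner toward the called gene's direction was only 0.04. Over all pairs, both log2 changes had the same sign in 1199 (55.4%), where 2 independent genes with the same share of positive signs would give 50.0%.

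Counts of pairs with both genes called moved with the libraries used. Leaving out each library in turn gave 4 to 10 pairs that rose together, 9 to 21 that fell together and 0 to 9 with opposite calls. The counts of 10 rising and of 9 opposite pairs came without replicate 3 of the cultures without added iron, and the lowest count of 9 falling pairs came without replicate 2 of that group. Without any one of the other 4 libraries, 11 to 14 pairs fell together. Of the 30 pairs, between 13 and 26 stayed called in both genes when 1 library was left out.

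Across pairs, the log2 changes of the 2 genes had a Pearson r of 0.38 and a Spearman rho of 0.17, with n = 2163 pairs that all share the same 6 libraries. The Pearson value rested on 3 pairs: without CREG1A with SUTP1, UBC16 with DsB_g02807 and TFN3 with DsB_g05826 it was 0.14, while rho was 0.17. These 3 pairs were chosen after their values were seen. Each of them holds at least 1 gene that passed the FPKM minimum only through the cultures without added iron. The mean levels of the 2 genes were nearly unrelated, with r = 0.05 on the log2 scale and a median difference of 1.19 log2 units.

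Few tail-to-tail pairs were available for the comparison. Over the 18 pairs with the same gap range, r of the log2 changes was 0.15 and rho was 0.21, and 9 of 18 pairs (50.0%) had the same sign. A gene was called in 4 of the 18 pairs and both genes in 0 pairs. Since 18 pairs carry little weight, the 1967 expressed tail-to-tail pairs with gaps over 500 nt were added after the data were seen. In these, r was 0.02, rho was 0.04 and 51.8% of pairs had the same sign, and 11.4% of called genes had a called partner, where 9.33% of the genes were called. The corresponding head-to-head values of 0.38, 0.17, 55.4% and 16.1% were above those, but the difference between the classes was not tested. The 2 classes also differed in level, with a median for the lower gene of a pair of 8.32 FPKM in short head-to-head pairs and 6.22 FPKM in the tail-to-tail pairs over 500 nt.

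Same-strand neighbours gave larger values than the head-to-head pairs at the same gaps. In 855 same-strand pairs with gaps of 0 to 500 nt, r was 0.49, rho was 0.55, 71.3% of pairs had the same sign and 47.9% of called genes had a called partner. Their mean levels were related as well, with r = 0.74. Head-to-head pairs at 1000 nt or less but over 500 nt (196 pairs) had rho = 0.07 and the same sign in 51.5%. Their r was 0.25, and 10 of their 31 called genes (32.3%) had a called partner, where 7.91% of the genes were called. All 992 head-to-head pairs over 500 nt had r = 0.11, rho = 0.06 and the same sign in 52.4%. Of their called genes 19.4% had a called partner, where 9.4% of the genes were called. In the 382 pairs over 5000 nt these shares were 54.45% for the sign and 17.7% for the partner. The partner share of the short pairs, 16.1%, was thus not above that of distant head-to-head pairs.

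**Figure D2:**
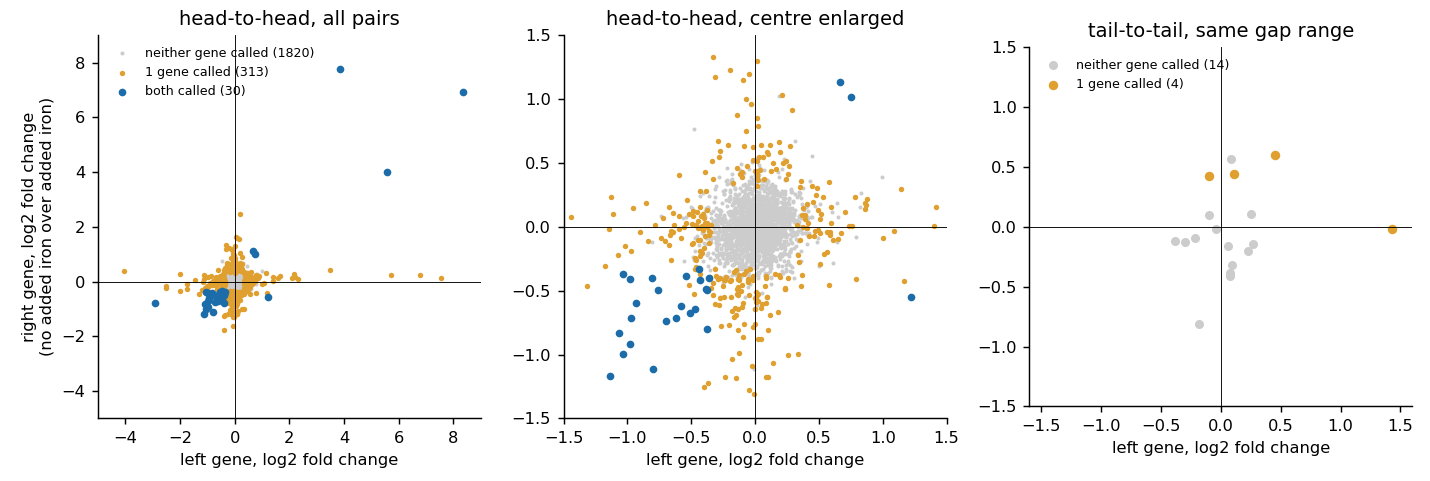
Log2 fold change (no added iron over added iron) of the right gene against that of the left gene, 1 point per pair; left, all 2163 head-to-head pairs; middle, the same pairs with both axes limited to 1.5; right, the 18 tail-to-tail pairs of the same gap range. Pairs with both genes called (30, blue) lie mostly at the lower left, and most pairs with 1 called gene (313, orange) lie along an axis.

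Within short gaps the rank correlation of the 2 log2 changes fell unevenly with distance, and Pearson's r had another order. Spearman's rho was 0.24 at gaps of up to 100 nt (289 pairs), 0.15 above that and up to 200 nt (1118 pairs), 0.21 up to 300 nt (517 pairs), 0.12 up to 400 nt (164 pairs) and 0.04 up to 500 nt (75 pairs). Pearson's r over the same classes was 0.17, 0.32, 0.54, 0.14 and 0.04. The pairs on which Pearson's r over all pairs rested lay in the 2 classes with the highest values. CREG1A with SUTP1 (243 nt) and UBC16 with DsB_g02807 (233 nt) were in the class with 0.54. TFN3 with DsB_g05826 (111 nt) was in the class with 0.32, and r by class without these pairs was not computed. The share with the same sign ranged only from 53.3% to 57.8% over these 5 classes and had no order. The lower gene's level fell from a median of 10.4 FPKM in the closest class to 6.92 FPKM in the class up to 400 nt, so level moved with the gap, and its part in the trend was not tested. By level of the lower gene, the same sign was found in 52.8% of 483 pairs at 1 to 5 FPKM, 56.0% of 1422 pairs at 5 to 20 FPKM and 57.0% of 258 pairs at 20 FPKM or more. Independent genes with the same shares of positive signs would give 50.2%, 50.0% and 51.7%.

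Replicates of one group also varied together, and this depended on how the libraries were scaled. The correlation of the 2 genes' deviations from their group means, computed per pair over 6 libraries, had a median of 0.39 in the head-to-head pairs and of 0.26 in the tail-to-tail pairs over 500 nt. After median-of-ratios factors the medians were 0.07 and 0.06, and after rescaling to equal sums 0.09 and 0.04. Same-strand pairs of 0 to 500 nt kept a median of 0.43 after median-of-ratios factors, against 0.45 before. The closest head-to-head class, up to 100 nt, went from 0.49 to 0.16. Scaling of the libraries thus removed most of the co-variation of head-to-head genes among replicate flasks, as it did for distant tail-to-tail pairs.

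**Figure D3:**
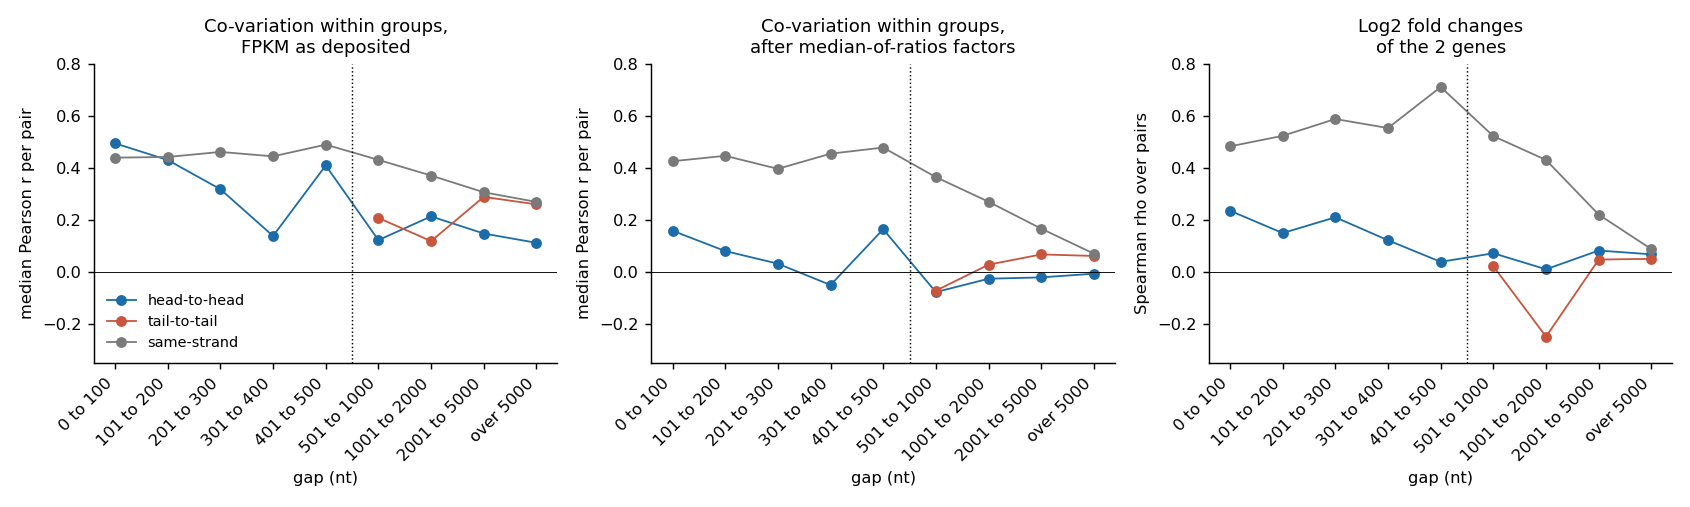
Values by gap class for head-to-head, tail-to-tail and same-strand pairs, shown for classes with at least 20 pairs; left and middle, median over pairs of the Pearson r of the 2 genes' deviations from their group means, on FPKM as deposited and after median-of-ratios factors; right, Spearman rho of the 2 log2 fold changes over pairs. The dotted line marks 500 nt; same-strand pairs (grey) lie above head-to-head pairs (blue) at short gaps in the middle and right panels.

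The largest joint rise was that of CREG1A (DsB_g13618) and SUTP1 (DsB_g13619), which face each other on chromosome 7 across a gap of 243 nt from position 15903327 to 15903569. CREG1A, a gene with a CREG-family domain, stood at 594, 542 and 320 FPKM in the 3 libraries without added iron and at 0.629, 0.251 and 0.422 FPKM with added iron. SUTP1 stood at 190, 194 and 99.9 FPKM without added iron and at 0.320, 0.289 and 0.242 FPKM with it. Every library without added iron was far above every library with it for both genes, and replicate 3 was the lowest of its group for both. The log2 change was 8.36 ± 0.22 (SE, n = 3 per group, adjusted p = 4.45e-07, limma) for CREG1A and 6.92 ± 0.23 (adjusted p = 1.66e-06) for SUTP1. The 2 changes differed by 1.44 ± 0.12 (adjusted p = 8.64e-04, limma over all 9472 neighbouring pairs tested), and 10.8% of all those pairs were called in that test.

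TFN3 (DsB_g05825), a gene with transferrin domains, and DsB_g05826, with an adenylate or guanylate cyclase catalytic domain, face each other on chromosome 3 across 111 nt (14260638 to 14260748). TFN3 was at 53.8, 59.3 and 40.9 FPKM without added iron and at 0.0503, 0.0702 and 0.107 FPKM with it. DsB_g05826 was at 50.9, 66.1 and 33.8 FPKM without added iron and at 2.03, 2.07 and 2.04 FPKM with it. The 2 genes reached about the same level without added iron, and they differed in the level that remained with iron. Their log2 changes were 5.59 ± 0.13 (adjusted p = 3.78e-07) and 4.02 ± 0.21 (adjusted p = 2.22e-05, both limma), and these differed by 1.57 ± 0.13 (adjusted p = 6.20e-04).

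Another large joint rise was that of UBC16 (DsB_g02806), annotated as a peroxin 4 type E2 ubiquitin-conjugating protein, and DsB_g02807, which has no symbol or Pfam domain, on chromosome 2 across 233 nt (7896914 to 7897146). UBC16 was at 282, 271 and 182 FPKM without added iron and at 19.5, 12.3 and 16.4 FPKM with it. DsB_g02807 was at 461, 455 and 270 FPKM without added iron and at 0.739, 0.748 and 0.804 FPKM with it. Groups did not overlap for either gene, and replicate 3 was again the lowest of the libraries without added iron. The changes were 3.85 ± 0.21 (adjusted p = 3.05e-05) for UBC16 and 7.77 ± 0.20 (adjusted p = 3.78e-07, both limma) for DsB_g02807, a difference of -3.92 ± 0.17 (adjusted p = 2.09e-05).

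The remaining joint rises were small. DsB_g22648, with leucine-rich repeats, and DsB_g22649 rose by 0.75 ± 0.12 (adjusted p = 0.00917) and 1.02 ± 0.12 (adjusted p = 0.00188, both limma) on chromosome 14 across 230 nt. DsB_g24127 and RFD2 (DsB_g24128) rose by 0.66 and 1.13 across 159 nt. The last pair falls outside the rule for named pairs and is given so that all 5 are listed. In 4 of these 5 pairs the test of the difference was called. On the log2(FPKM + 1) scale the sizes of the rises thus mostly differed. CREG1A, SUTP1, TFN3 and DsB_g02807 were under 1 FPKM with added iron, so the differences in their pairs depend on the added 1.

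Of the 6 members of the iron list that rose, CREG1A and SUTP1, which are each other's partner, and TFN3 had a called partner. FOX1, FRE1A and NRAMP4 did not. FOX1 (DsB_g14819), a multicopper ferroxidase of iron uptake, stood at 1034, 1038 and 679 FPKM without added iron and at 3.20, 3.67 and 4.56 FPKM with it, on chromosome 8. Its neighbour across 255 nt (10291500 to 10291754), the AAA-type ATPase DsB_g14820, stood at 8.25, 7.92 and 7.11 FPKM without added iron and at 7.45, 6.52 and 6.97 FPKM with it. FOX1 was far higher in all 3 libraries without added iron, while the ranges of its neighbour overlapped. The change was 7.56 ± 0.19 (adjusted p = 3.78e-07) for FOX1 and 0.13 ± 0.09 (adjusted p = 0.38) for DsB_g14820, and they differed by 7.42 ± 0.18 (adjusted p = 1.50e-06, limma).

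FRE1A (DsB_g20681), with the membrane domain of ferric reductases, and ARD1 (DsB_g20682), an acireductone dioxygenase of the methionine salvage pathway, are separated by only 60 nt on chromosome 12 (11218715 to 11218774). FRE1A was at 128, 118 and 94.5 FPKM without added iron and at 0.721, 1.15 and 1.62 FPKM with it. ARD1 was at 95.1, 96.3 and 78.8 FPKM without added iron and at 75.2, 67.6 and 83.0 FPKM with it, so its groups overlapped. The changes were 5.73 ± 0.17 (adjusted p = 6.33e-07) and 0.25 ± 0.12 (adjusted p = 0.24, both limma), with a difference of 5.48 ± 0.15 (adjusted p = 2.15e-06). ARD1 also belongs to 1 of the 18 tail-to-tail pairs, with REC8, whose change of 0.11 was not called.

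MCA1 (DsB_g11707), whose symbol in Chlamydomonas belongs to a pentatricopeptide repeat protein that stabilises a chloroplast transcript, rose from 2.01, 1.61 and 2.20 FPKM with added iron to 369, 362 and 238 FPKM without it. Its partner across 415 nt on chromosome 6, DsB_g11708, ranged from 6.59 to 6.95 FPKM with added iron and from 7.70 to 8.65 FPKM without it. The groups of DsB_g11708 did not overlap, but the step was small. MCA1 changed by 6.76 ± 0.18 (adjusted p = 3.78e-07) and DsB_g11708 by 0.23 ± 0.08 (adjusted p = 0.10, both limma), and the difference was 6.53 ± 0.16 (adjusted p = 1.57e-06).

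NRAMP4 (DsB_g19319), of a family of divalent metal transporters, had the shortest gap after FRE1A among these, 75 nt on chromosome 11. It stood at 56.0, 55.1 and 40.7 FPKM without added iron and at 8.29, 8.39 and 11.5 FPKM with it, while the WD40 protein DsB_g19320 ranged from 6.14 to 9.11 FPKM over all 6 libraries with overlapping groups. NRAMP4 changed by 2.31 ± 0.16 (adjusted p = 1.46e-04) and DsB_g19320 by 0.10 ± 0.16 (adjusted p = 0.74, both limma). DsB_g16842 on chromosome 9, without an annotated domain, rose by 3.48 ± 0.12 (adjusted p = 2.01e-06) beside DsB_g16843 at 0.43 ± 0.13 (adjusted p = 0.082). The difference was called in these pairs too, with adjusted p = 2.78e-05 and 9.20e-06 (limma). Some of these partners were called under other scalings. After rescaling to equal sums, which moved the median of all tested genes by 0.16, ARD1 was at 0.44 (adjusted p = 0.0062), DsB_g14820 at 0.29 (adjusted p = 0.033), DsB_g11708 at 0.39 (adjusted p = 0.0078) and DsB_g16843 at 0.58 (adjusted p = 0.0085). ARD1 was also called after quantile normalization (0.31, adjusted p = 0.027) and with replicates 1 and 2 only (0.42, adjusted p = 0.043). DsB_g16843 was also called after median-of-ratios factors (adjusted p = 0.046), with replicates 1 and 2 only (0.025) and without replicate 3 without added iron (0.017).

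**Figure D4:**
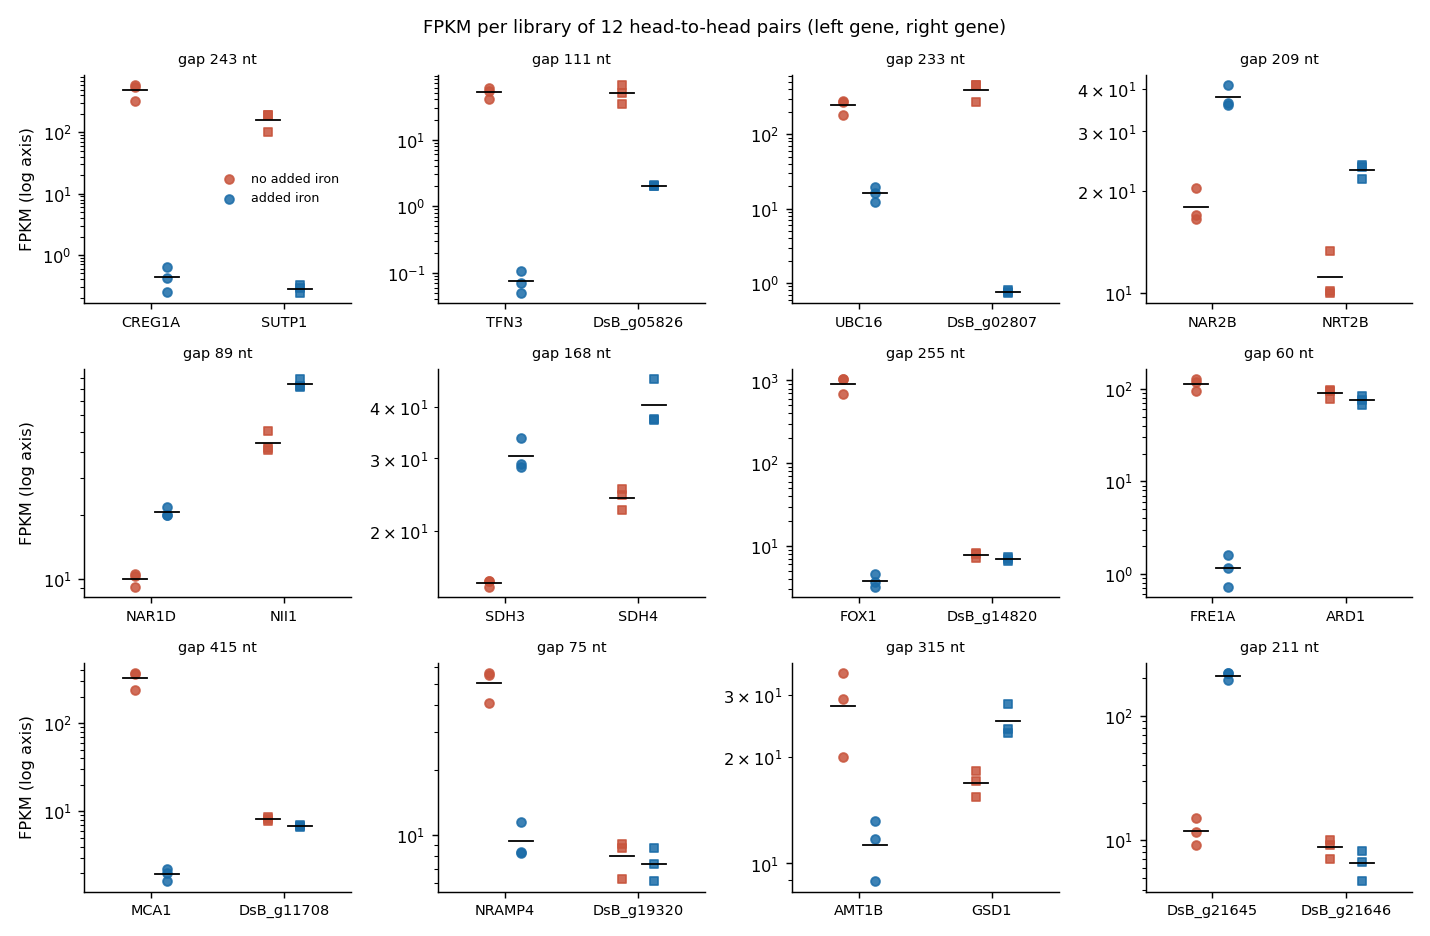
FPKM of both genes of 12 head-to-head pairs in every library, on log axes, with circles for the left gene, squares for the right gene, red for no added iron, blue for added iron and a bar at each group mean (n = 3). In the first 6 panels both genes shift in the same direction; in FOX1, FRE1A, MCA1, NRAMP4 and DsB_g21645 only the left gene shifts by more than 2-fold, and in AMT1B with GSD1 the genes shift in opposite directions.

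Of the 5 largest falls, 4 were beside a partner that was not called. DsB_g21645, which carries a Rieske-type iron-sulfur domain, stood at 11.6, 9.06 and 14.98 FPKM without added iron and at 219, 193 and 218 FPKM with it. Its partner across 211 nt on chromosome 13, DsB_g21646 with a starch-binding domain, stood at 9.15, 7.07 and 10.1 FPKM and at 8.12, 6.68 and 4.67 FPKM, with overlapping groups. DsB_g21645 fell by 4.06 on the log2 scale (SE 0.16, adjusted p = 5.08e-06) and the value of DsB_g21646 was 0.40 ± 0.19 (adjusted p = 0.23, both limma). The difference of -4.46 ± 0.19 was called (adjusted p = 2.18e-05).

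FUM1 (DsB_g09458), annotated as a fumarate hydratase and carrying the domains of the iron-sulfur class of that enzyme, was at 6.80, 6.41 and 6.72 FPKM without added iron and at 29.1, 27.5 and 32.8 FPKM with it. It fell by 2.01 (SE 0.09, adjusted p = 8.08e-06), while DsB_g09459 across 82 nt had a change of -0.33 ± 0.12 (adjusted p = 0.13, both limma). The cyclophilin-type gene CYN26B (DsB_g13929) fell by 2.52 (SE 0.20, adjusted p = 2.82e-04) next to DsB_g13930 at -0.17 (adjusted p = 0.31). DsB_g09608, at 0, 0.114 and 0.313 FPKM without added iron and 6.19, 4.84 and 5.29 FPKM with it, fell by 2.50 (adjusted p = 8.27e-05) next to DsB_g09609 at -0.24 (adjusted p = 0.13, all limma). None of these partners was called, except that DsB_g09459 was after quantile normalization (-0.35, adjusted p = 0.036).

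The exception was APSR1 (DsB_g03887), a plastid adenylylsulfate reductase of sulfate assimilation, opposite DsB_g03888, with a chalcone isomerase domain, on chromosome 2 across 113 nt (19931543 to 19931655). APSR1 was at 32.0, 27.2 and 28.3 FPKM without added iron and at 214, 207 and 250 FPKM with it. DsB_g03888 was at 74.0, 63.7 and 67.1 FPKM without added iron and at 119, 107 and 131 FPKM with it. Groups did not overlap for either gene. APSR1 fell by 2.90 (SE 0.11, adjusted p = 3.69e-06) and DsB_g03888 by 0.79 (SE 0.11, adjusted p = 0.00436), with a difference of -2.10 ± 0.09 ( adjusted p = 2.19e-05, limma).

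Pairs with a gene for nitrate or nitrite handling made up the largest recognisable set among the joint falls; this grouping was made after the values were seen. Of 8 pairs with a gene symbol beginning NAR, NRT or NII followed by a number, 6 fell in both genes, and in 7 at least 1 gene was called. NAR2 proteins are accessory subunits of NRT2 nitrate transporters, NAR1 proteins carry nitrite, and NII1 is the nitrite reductase, which uses a siroheme and an iron-sulfur cluster. Of all 20 tested genes with such a symbol, in any arrangement, 16 fell and 0 rose, so the fall was not limited to genes in head-to-head pairs. Of the 12 members with such a symbol, 10 fell; after rescaling to equal sums 9 fell, and after median-of-ratios factors and quantile normalization 10 fell each time.

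On chromosome 4, NAR2B (DsB_g08103) and NRT2B (DsB_g08104) face each other across 209 nt (14260723 to 14260931). NAR2B was at 16.9, 16.6 and 20.4 FPKM without added iron and at 36.0, 36.5 and 41.2 FPKM with it. NRT2B was at 10.1, 10.003 and 13.3 FPKM without added iron and at 23.5, 21.7 and 23.8 FPKM with it. Both genes had all 3 libraries without added iron below all 3 with it, and replicate 3 was the highest of the former for both. The changes were -1.04 ± 0.11 (adjusted p = 0.00116) and -0.996 ± 0.12 (adjusted p = 0.00192, both limma), and they differed by -0.04 ± 0.10 (adjusted p = 0.83).

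The neighbouring pairs of the same cluster also fell in both genes. NRT2D (DsB_g08114) and NAR2D (DsB_g08115), 106 nt apart, changed by -1.07 ± 0.15 (adjusted p = 0.00409) and -0.83 ± 0.08 (adjusted p = 9.58e-04). NAR2C (DsB_g08105) and DsB_g08106, 133 nt apart, changed by -0.80 ± 0.10 (adjusted p = 0.00282) and -1.11 ± 0.15 (adjusted p = 0.00338). NAR2F (DsB_g08122) and NRT2F (DsB_g08123), 196 nt apart and outside the rule for named pairs, changed by -1.03 and -0.37 (adjusted p = 7.49e-04 and 0.0286, all limma), and only in this pair was the difference called (adjusted p = 0.0148). These genes are members of families with several copies in 1 cluster, the sources used here do not say how reads that map to several places were counted, and their levels are uncertain to that extent.

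On chromosome 15, NAR1D (DsB_g23686) and NII1 (DsB_g23687) are 89 nt apart (8577073 to 8577161). NAR1D was at 9.11, 10.5 and 10.3 FPKM without added iron and at 20.1, 20.03 and 21.98 FPKM with it, and NII1 was at 41.8, 40.8 and 50.3 FPKM without added iron and at 82.6, 81.5 and 89.0 FPKM with it. The groups did not overlap for either gene. The changes were -0.98 ± 0.09 (adjusted p = 5.35e-04) and -0.92 ± 0.11 (adjusted p = 0.00196), with a difference of -0.06 ± 0.11 (adjusted p = 0.77, limma). On the same chromosome NAR2H (DsB_g23677) and DsB_g23676, 369 nt apart, changed by -1.17 ± 0.16 (adjusted p = 0.00359) and -1.14 ± 0.11 (adjusted p = 7.52e-04). In the 2 pairs of this set that did not fall together, DsB_g14129 fell by 0.77 (adjusted p = 0.00706) opposite NRT1 at -0.27 (adjusted p = 0.12), and NAR1A at 0.05 and DsB_g20578 at 0.17 were both uncalled (adjusted p = 0.85 and 0.34, limma).

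Among the joint falls outside nitrate handling were both small membrane subunits of succinate dehydrogenase, the respiratory complex that carries iron-sulfur clusters and a heme. SDH3 (DsB_g12091) and SDH4 (DsB_g12092) are 168 nt apart on chromosome 6 (18026536 to 18026703). SDH3 was at 15.1, 14.6 and 15.1 FPKM without added iron and at 28.6, 29.0 and 33.7 FPKM with it, and SDH4 was at 25.3, 22.5 and 24.5 FPKM without added iron and at 37.4, 37.1 and 46.7 FPKM with it. Neither gene's groups overlapped, and replicate 3 with added iron was the highest library for both. The changes were -0.97 ± 0.09 (adjusted p = 6.96e-04) and -0.72 ± 0.11 (adjusted p = 0.00780), and their difference of -0.25 ± 0.10 was not called (adjusted p = 0.14, limma).

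Ferredoxin FDX6 (DsB_g17534) and DsB_g17535, 157 nt apart on chromosome 10, fell to nearly the same degree. FDX6 went from 59.3 ± 5.03 FPKM with added iron to 36.0 ± 2.38 FPKM without it (SD, n = 3 each), and DsB_g17535 from 196 ± 6.23 to 117 ± 2.94 FPKM. Their changes were -0.70 ± 0.10 (adjusted p = 0.00513) and -0.73 ± 0.09 (adjusted p = 0.00198, limma). A joint fall did not require similar levels: LHCBM1 (DsB_g04212), a major light-harvesting protein of photosystem II, had a mean FPKM 319 times that of its partner DsB_g04213, 121 nt away. LHCBM1 went from 9108 ± 599 to 6083 ± 345 FPKM and DsB_g04213, with an epimerase domain, from 29.1 ± 2.66 to 18.6 ± 0.568 FPKM. These changes were -0.58 ± 0.09 (adjusted p = 0.00576) and -0.62 ± 0.09 (adjusted p = 0.00612, limma). The call of LHCBM1 was lost after quantile normalization, with a change of -0.14 and an adjusted p of 0.44, and also without a filter on low values (adjusted p = 0.23) and with replicates 1 and 2 alone (adjusted p = 0.069).

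The other 3 named pairs fell in both genes with groups that did not overlap. CYP97A1 (DsB_g15756), a cytochrome P450 of the family that hydroxylates carotenes, changed by -0.71 ± 0.10 (adjusted p = 0.00583) and DsB_g15755 by -0.62 ± 0.11 (adjusted p = 0.0147) across 145 nt. TEF4 (DsB_g10801), with a rhodanese-type domain, changed by -0.76 ± 0.10 (adjusted p = 0.00383) and DsB_g10802, with a ubiquitin-type domain, by -0.50 ± 0.09 (adjusted p = 0.0151) across 97 nt. CAS1 (DsB_g01759), also with a rhodanese-type domain, changed by -0.93 ± 0.11 (adjusted p = 0.00180) and the acyl carrier protein ACP2 (DsB_g01760) by -0.60 ± 0.11 (adjusted p = 0.0173, all limma) across 365 nt. The call of DsB_g10802 was lost without any 1 of 4 libraries (adjusted p up to 0.068) and after rescaling to equal sums, that of ACP2 without replicate 2 without added iron (adjusted p = 0.067), without replicate 1 with added iron (0.051) and without the filter (0.063). That of DsB_g15755 was lost without replicate 2 without added iron (adjusted p = 0.068) and with the replicate number as a block (0.058).

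In 1 pair both genes were called in opposite directions. AMT1B (DsB_g12555), an ammonium transporter, stood at 29.3, 34.5 and 20.05 FPKM without added iron and at 8.91, 11.8 and 13.2 FPKM with it. GSD1 (DsB_g12556), an aldehyde dehydrogenase family member 315 nt away on chromosome 7 (288451 to 288765), stood at 18.3, 15.4 and 17.2 FPKM without added iron and at 24.1, 23.4 and 28.3 FPKM with it. Neither gene's groups overlapped. AMT1B changed by 1.22 ± 0.21 (adjusted p = 0.0101) and GSD1 by -0.55 ± 0.11 (adjusted p = 0.0177), and they differed by 1.77 ± 0.23 (adjusted p = 0.00498, limma). The call of GSD1 was lost without replicate 2 without added iron (adjusted p = 0.078) and without replicate 3 with added iron (0.054), and that of AMT1B without the filter on low values (0.058).

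In most pairs with joint calls the 2 sizes were not called different. With 3 flasks per group this does not show that they were alike. PETM1 and DsB_g00034 changed by -0.98 and -0.41, and their difference was not called (adjusted p = 0.052, limma). Of the 29 pairs called in the same direction, 6 differed between the 2 genes by the test of the difference, and the median size of the difference was 0.23 on the log2 scale. The 13 such pairs outside the rule for named pairs, 12 lower and 1 higher, had falls between -1.03 and -0.33. Gaps of the 30 pairs with 2 called genes ran from 63 to 369 nt with a median of 158 nt. In only 4 of the 29 did both genes change by at least 2-fold.

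The test of the difference was called in 240 of the 2163 pairs (11.1%), against 10.8% of all neighbouring pairs tested. By class it was called in 14.1% of the tail-to-tail pairs over 500 nt and in 1 of the 18 short ones. In same-strand pairs of 0 to 500 nt the share was 3.27%. In 181 of the 240 at least 1 gene was called on its own and in 59 neither was. Of 68 pairs in which a gene changed by at least 2-fold, 61 differed and 12 were called in both genes. Of 17 pairs with a change of at least 4-fold, all 17 differed and 4 were called in both genes, and of 7 with at least 16-fold, 7 differed and 3 were called in both. These pairs were picked by a large change of a gene in the same data, which makes a called difference likely beforehand. Pairs of other orientations were not counted in this way, so these counts describe nothing particular to head-to-head pairs. Without 1 library the count of differing pairs ran from 97, without replicate 2 with added iron, to 298, without replicate 3 of the cultures without added iron; each of the other 4 gave 103 to 125.

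Lists of functional groups, fixed by symbol or product name, gave few joint calls. On the iron list 11 genes were members, 6 rose, 2 fell, and the median change was 2.31, where the median of all tested genes was 2.79e-04. Of all tested genes 4.19% rose and 5.2% fell. In any arrangement 22 of the 28 tested genes of this list were called, so its calls were not limited to head-to-head pairs. The lists were chosen with earlier results of these data known, so the rises on the iron list are a description and no independent support. The risers were CREG1A, SUTP1, TFN3, FOX1, FRE1A and NRAMP4, and the fallers were the ferredoxins FDX6 and FDX11 (DsB_g03064), the latter by 1.64 (SE 0.18, adjusted p = 0.00140, limma) opposite DsB_g03063 at -0.05. Only CREG1A and SUTP1 formed a pair with both genes on this list. The other ferredoxins among the members, FDX3, FDX4 and FDX8, had values of -0.08, -0.20 and -0.10 and were not called; their partners CHLI1 at -0.30, DsB_g24019 at 0.28 and ARL4 at 0.17 were not called either.

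Photosynthesis genes numbered 12 among the members, of which 5 (41.7%) fell and 0 rose, with a median of -0.39, where 5.2% of all tested genes fell. In any arrangement 30 of the 48 tested genes of this list were called. After rescaling to equal sums 6 of the 12 fell and 2 rose. Ribosomal proteins numbered 81, of which 4 (4.94%) fell and 0 rose, where 5.2% of all tested genes fell and 7 of the 181 tested genes of the list were called. The 81 members had a median of -0.16 that was 0.02 after rescaling to equal sums, and 7 rose and 6 fell after quantile normalization. They included the pairs PRPS13 with RPL36, at -0.29 and -0.22, and PRPS15 with PRPL13, at -0.29 and -0.07, with no gene called. Proteasome and ubiquitin genes numbered 26, of which 2 (7.69%) rose and 0 fell, where 4.19% of all tested genes rose; 17 rose after rescaling to equal sums, and no pair had both genes on that list.

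Cilia genes were the largest list, with 150 members, of which 5 (3.33%) fell and 0 rose, where 5.2% of all tested genes fell and 15 of the 357 tested genes of the list were called. The median of the members was -0.06, and after rescaling to equal sums 2 fell and 12 rose. The 4 pairs with both genes on this list, FAP392 with the dynein heavy chain DHC7, PF23 with FAP222, and FAP76B with RSP12A and FAP76C with RSP12B, which combine a flagella-associated protein with a radial spoke protein, had changes between -0.16 and 0.15 and no call. Core histones gave 6 members and 2 pairs of an H2B and an H2A gene, HTB21 with HTA18 and HTB22 with HTA19, 267 and 258 nt apart on chromosome 2. Their FPKM in poly(A) RNA were low, from 0.185 to 3.53 over the 4 genes and 6 libraries, and no gene of these pairs was called.

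The pairs with the highest level of their lower gene also differed in how far they moved together. BIP1 (DsB_g22932) and HSP90B (DsB_g22933), chaperones of the endoplasmic reticulum, are 109 nt apart on chromosome 14. BIP1 was at 281, 264 and 240 FPKM without added iron and at 153, 176 and 196 FPKM with it, and HSP90B at 233, 231 and 215 and at 155, 180 and 201 FPKM. Groups did not overlap for either gene. BIP1 rose by 0.58 ± 0.12 (adjusted p = 0.0222) and HSP90B had a change of 0.35 ± 0.12 (adjusted p = 0.10, both limma), and the difference of 0.23 ± 0.09 was not called (adjusted p = 0.16). The call of BIP1 was lost without any 1 of 4 libraries (adjusted p up to 0.088), without the filter (0.055) and with the replicate number as a block (0.083), while HSP90B was called after median-of-ratios factors (adjusted p = 0.037).

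ATP9A (DsB_g23375) and ATP9B (DsB_g23376), both with the domain of the c subunit of ATP synthase, are 57 nt apart on chromosome 15. ATP9A was at 301, 277 and 228 FPKM without added iron and at 196, 181 and 210 FPKM with it, and ATP9B at 400, 379 and 322 FPKM and at 353, 304 and 387 FPKM, with overlapping groups. The changes of 0.45 ± 0.13 (adjusted p = 0.065) and 0.08 ± 0.13 (adjusted p = 0.76, both limma) were not called, and neither was their difference (adjusted p = 0.051). With median-of-ratios factors ATP9A was called (adjusted p = 0.017).

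At the limit of the gap rule, DsB_g25191 and DsB_g25192 on an unplaced scaffold were 500 nt apart and had changes of -0.06 and -0.36. The nearest pair outside, CCDA1B with RPL22 on chromosome 4, was 502 nt apart and had changes of 0.10 and -0.17. The lowest mean among the members was 1.01 FPKM, and the highest mean among genes left out for level was 0.994 FPKM. In 47 pairs the lower gene had a mean under 2 FPKM.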

How the data were processed

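The authors aligned single-end reads to their own assembly and computed FPKM per gene and library with cuffdiff, per the series' design text and the labels; STAR 2.4.0j and Cuffdiff 2.0.2 are named in the submitters' processing notes. The sources used here do not state strandedness, the counting of multi-mapping reads, scaling between libraries or read numbers, so no counting interval is given. The deposited FPKM table held 25081 genes, 7 without a model in the deposited annotation (version 1.1, 25074 models, 16 chromosomes), whose coordinates are used here and count from 1.

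Pairs were consecutive nuclear models. Genes with a mean of at least 1 FPKM were fitted with limma 3.58.1 in R 4.3.3 on log2(FPKM + 1), with a mean-variance trend and group as the only term. The difference within a pair was fitted the same way, without a trend, over 9472 neighbouring pairs. Tests were two-sided with Benjamini-Hochberg adjustment, and both fits were tested on simulated data. Correlations over pairs are descriptions. In them each pair was entered in both orders for Pearson's r and Spearman's rho. Python 3.11.15, pandas 2.3.3 and scipy 1.17.1 were used.

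The members and lists were chosen with earlier results of these data known. Named pairs were at most 15 with both genes called, those with opposite calls, the 5 largest rises and 5 largest falls, the 6 clearest differences, the 3 highest levels, pairs on the iron list, pairs with both genes on 1 list, and those nearest 500 nt. Flasks were separate cultures, and p-values measure the spread between 3 flasks per group. Alternatives were another pseudocount, filter, scaling, gap limit, a replicate block and leaving out libraries. No genome sequence was used.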

Additional observations from a re-analysis of the deposited data

How the results depend on the processing

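Both correlations of the head-to-head log2 changes kept their direction under every alternative run. Their same-sign share did so too, apart from equal sums, where no share for independent genes was computed. The counts of calls moved with scaling and with the libraries used, and the cause was not tested. Depth per library is not known here, and 3 flasks a group limit the precision. Genes called higher and lower (135 and 238) came to 229 and 366 with median-of-ratios factors, 1129 higher after rescaling to equal sums, 317 and 401 after quantile normalization, and 303 higher with replicates 1 and 2 only. Pairs called in both genes (5 higher, 24 lower, 1 opposite) came to 12 lower and 0 opposite without a filter, 4 opposite at a minimum of 5 FPKM, 12 higher and 13 opposite with median-of-ratios factors, 168, 14 and 29 at equal sums, 17, 41 and 16 with quantile normalization, and 14, 14 and 9 with replicates 1 and 2 only. In the range of 0 to 300 nt 0 pairs were opposite; 500 to 1000 nt held 18 genes higher, 13 lower, 3, 2 and 0 joint pairs and 13 differing pairs; pairs with both 5′ UTRs annotated (chosen after seeing the data) held 66 and 107 genes, 3, 12 and 0 joint pairs and 120 differing pairs. These last counts come from fewer pairs. Leaving out 1 library gave 62 to 243 genes higher, 96 to 257 lower, 4 to 10, 9 to 21 and 0 to 9 joint pairs, 97 to 298 differing pairs and a tail-to-tail same-sign share of 50.0% to 66.7%.

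Titles number the replicates 1 to 3 in both groups. Same-numbered deviations correlated at 0.02, 0.08 and -0.13, which gave no sign of pairing by number but cannot exclude it. With the replicate number as a block, 73 genes were higher and 123 lower, 5 pairs rose and 12 fell together, and 115 pairs differed.

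Pearson's r over head-to-head pairs (0.38) was 0.41 with a pseudocount of 0.1 and 0.41 at a minimum of 5 FPKM, 0.36 with replicates 1 and 2, 0.42 at 0 to 300 nt, 0.25 at 500 to 1000 nt, 0.27 with both 5′ UTRs and 0.14 without the 3 pairs that moved most. Spearman's rank correlation (0.17) was 0.14 with replicates 1 and 2, 0.072 at 500 to 1000 nt and 0.14 with both 5′ UTRs. The same-sign share of 55.4% was 70.9% at equal sums, where the median change of all tested genes was 0.16. Signs were then no longer balanced, so 70.9% cannot be set against the 50.0% of independent genes. For the 18 tail-to-tail pairs r (0.15) was -0.025 after quantile normalization, 0.33 with replicates 1 and 2, -0.28 at 500 to 1000 nt and -0.50 with both 5′ UTRs, and the same-sign share (50.0%) was 40.0%, 61.1%, 61.1% and 0% at a minimum of 5 FPKM, at equal sums, with replicates 1 and 2 and with both 5′ UTRs. The level correlation of head-to-head pairs (0.046) was 0.0502 with a pseudocount of 0.1, 0.0103 at 5 FPKM, 0.0293 at 0 to 300 nt, 0.0945 at 500 to 1000 nt and 0.0336 with both 5′ UTRs; that of tail-to-tail pairs (0.29) was 0.31, 0.45, -0.34 and -0.31 at 5 FPKM, 0 to 300 nt, 500 to 1000 nt and with both 5′ UTRs, and 3.92e-04 over 500 nt. Median co-variation within groups (0.39 head-to-head, 0.26 tail-to-tail over 500 nt) was 0.0702 and 0.0579 with median-of-ratios factors and 0.0858 and 0.0410 at equal sums.

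Of the 45 named genes that were called, 38 stayed called in each of the 13 or 14 alternatives that gave them a value, 7 lost the call in at least 1 and 0 changed sign. Of the 37 not called, 14 were called in at least 1 alternative and 16 changed sign somewhere. At equal sums the values became 0.12 for DsB_g03063, 0.0707 for FDX8, 0.11 for PRPL13, 0.0866 for FDX3, 0.0634 for PF23, 0.16 for FAP222, 0.11 for FAP76B, 0.11 for RSP12A and 0.0882 for DsB_g25191. After quantile normalization they were -0.0308 for HTB22, -0.0137 for FAP392 and 0.18 for RPL36. With replicates 1 and 2 they were 0.0623 for DsB_g03063, 0.0378 for FDX8, -0.17 for HTB22, 0.0947 for PRPL13, 0.21 for FAP222 and 0.0881 for RSP12A. Leaving out 1 library gave ranges across 0 from -0.21 to 0.39 for HTB22, -0.16 to 0.31 for HTA19, -0.0369 to 0.0421 for FAP392, -0.0344 to 0.20 for RSP12B, -0.11 to 0.0202 for DsB_g03063, -0.13 to 0.0157 for PRPL13, -0.14 to 0.00918 for PF23, -0.0913 to 0.11 for FAP222, -0.17 to 0.0311 for RSP12A, -0.00923 to 0.25 for DsB_g19320, -0.21 to 0.00188 for FDX3 and -0.0165 to 0.17 for ATP9B.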
